A study of Mus musculus with 78 samples.

Results

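Lung gene expression was compared between mice left to sleep until 12 h after lights on and mice left to sleep until 9 h after lights on. The members are the arrays whose labels read spontaneous sleep (SS) with 12 hr or 9 hr, which are 9 arrays in each group and 18 of the 78 lung arrays of the series. All mice were male C57BL/6J (C57BL\6 in the labels), about 10 weeks old, with no transgene or deletion named in the labels. They were kept in 12 h of light and 12 h of dark and were fed only in the dark, so the 12 h mice were killed at the end of the light period, just before their usual activity and feeding. Sleeping mice were left undisturbed, and sleep was inferred from breaks of infrared beams rather than from brain recordings. Both groups differ in time of day as well as in hours of sleep, and the effects of these cannot be told apart within sleeping mice. Mice kept awake by gentle handling from lights on (sleep deprivation, SD) and killed at the same hours, 9 at 9 h and 8 at 12 h, served for comparison. Groups at 3 h and 6 h of both conditions and a baseline group killed at lights on entered only to estimate the spread and to show the course over the day.

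Many lung genes follow daily signals. Within each cell, the activators CLOCK and BMAL1 (gene Arntl) bind E-boxes and drive the Per and Cry genes, whose proteins accumulate and repress the activators, so that Per and Cry transcripts rise late in the light period of a mouse while Arntl falls. From outside, the adrenal glands release corticosterone in a daily wave that peaks around lights off, and the glucocorticoid receptor then switches on genes such as Fkbp5, Tsc22d3 and Per1. Blood leukocytes also move in and out of tissues with the time of day. Expression is given as log2 intensity from the array, where a difference of 1 means a change by a factor of 2. Levels are compared between mice for the same probe set, never between genes.

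The array numbers in the titles bear on these groups. The 9 conditions were laid along the numbers in the order in which they repeat. This layout gave no place to the absent number 9 but gave places to other absent numbers, which shifts conditions against the labels. As labelled, each condition stands in unbroken blocks, with array 81 listed where number 9 would stand. Under the layout, 15 of the 78 arrays stand at a place that belongs to a neighbouring condition. Array 81, labelled 12 h of sleep deprivation, has a number outside the sequence, which makes 16. In the groups compared here these are arrays 10 and 28, labelled 9 h of sleep but standing among 12 h of sleep deprivation, and arrays 15 and 32, labelled 12 h of sleep but standing among 9 h of sleep. The labels were kept for every array, and results are given with all arrays and without these 16, which leaves 7 sleeping mice at each hour. The choice of these arrays used their numbers in this layout and not their values, but it was made with earlier results of these data known. The 18 arrays also fall into 2 runs of consecutive numbers, 10 to 19 and 28 to 35, and each run holds both groups.

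With all arrays as labelled, 5 of 35556 probe sets differed between 12 h and 9 h at an adjusted p under 0.01 (limma, Benjamini-Hochberg), which is 0.0141% of those tested, and all 5 were higher at 12 h. A further count at an unadjusted p under 0.05 was 4273. Only 2 of the 5 carry the name of a single gene. Without the 16 arrays, 874 probe sets differed, which is 2.46%, with 568 higher (1.6%) and 306 lower (0.861%) at 12 h. All 5 probe sets called with all arrays were among the 874, and all 874 had the same direction with all arrays, at a median of 0.63 times the size. Leaving out only arrays 10, 15, 28 and 32 gave 433 probe sets. Within the 2 runs, without the 16 arrays, the counts were 851 for arrays 10 to 19 and 418 for arrays 28 to 35. With only the 14 remaining sleeping mice in the fit, and hence a spread estimated from them alone, the count was 320.

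Of the 4 arrays 3 went against their labels on the 874 probe sets, whose choice had not used them. Array 10 was nearer to the 12 h mean on 84.2% of these probe sets and array 28 on 76.3%, although both carry the 9 h label. Of the arrays labelled 12 h, array 32 was nearer to the 12 h mean on 21.4% and array 15 on 57.8%. The other 7 mice labelled 9 h ranged from 2.9% to 24%, and the other 7 labelled 12 h from 79.9% to 98.3%, as the choice of the probe sets fixes. Outside the sleeping mice, array 20, labelled 9 h of sleep deprivation, and array 36, labelled baseline, stand among 12 h of sleep under the same layout. They were nearer to the 12 h mean on 93.1% and 92.6%, and array 56, also labelled baseline, on 27.8%. The kept arrays of these groups were not scored, so their own labels give no measure for comparison on these probe sets. Kept deprived mice of 9 h averaged 9.65 for Fkbp5 and 7.71 for Cry1, and array 20 read 10.43 and 8.38. Kept baseline mice averaged 7.38 and 7.94, where array 36 read 10.1 and 8.22 and array 56 read 7.9 and 6.9. Sleeping mice averaged 8.31 and 7.59 at 9 h, and 10 and 8.33 at 12 h. Whether samples or labels were exchanged was not tested.

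**Figure D1:**
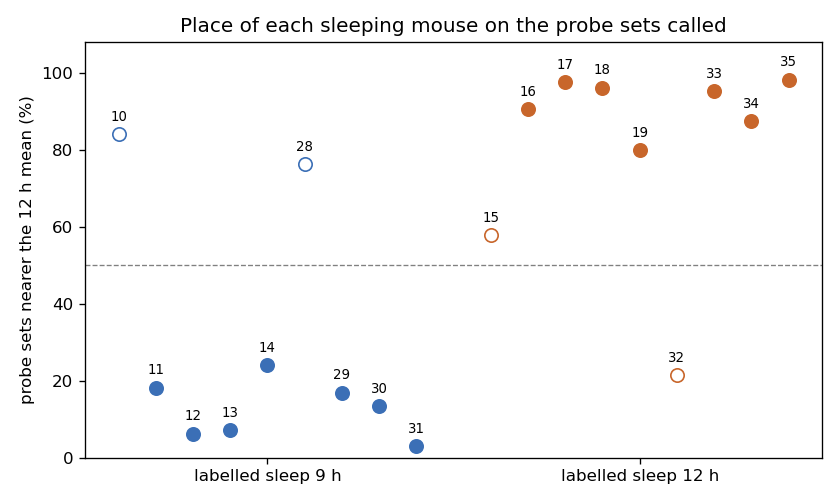
Percent of the 874 probe sets called without the 16 arrays on which each sleeping mouse lay nearer to the 12 h mean than to the 9 h mean, by labelled group and array number. Open circles are the 4 left-out arrays, of which 10 and 28 lie above 50% under a 9 h label and 32 lies at 21.4% under a 12 h label. The filled circles were used to choose the probe sets.

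The 2 named genes that differed with all arrays were Tent5c and Vps26b. Tent5c encodes a poly(A) polymerase that lengthens the tails of messenger RNAs. It ranged from 9.56 through a median of 9.81 to 10.07 at 9 h and from 9.73 through 10.43 to 10.97 at 12 h, so the groups overlapped at their edges. Its mean was higher at 12 h by 0.54 ± 0.10 (SE, n = 9 mice per group, limma adjusted p = 0.00861). Within runs the difference was 0.73 for arrays 10 to 19 and 0.30 for arrays 28 to 35, where it did not pass (limma adjusted p = 0.51). Vps26b, a subunit of the retromer that returns receptors from endosomes, went from a mean of 10.12 ± 0.09 to 10.30 ± 0.08 (SD, n = 9), a difference of 0.18 with limma adjusted p = 0.00861. Neither passed when only the 18 sleeping arrays entered the fit (limma adjusted p = 0.338 for both). The rises with the next smallest p, in Gtf3c4, Arhgap10, Brpf3, Abca1 and Zfp592, were between 0.22 and 0.33 and did not pass with all arrays, and neither did the falls in Mfsd4b2, Irf7, Pde6c, Olfr695 and Olfr635, which were between -0.36 and -0.18.

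Genes induced by glucocorticoids had the most members past the threshold of the 22 process lists without the 16 arrays. None of the 26 members passed with all arrays, where their median difference was 0.24 beside -0.01 over all 18820 genes. Without the 16 arrays 16 of 26 rose and none fell, beside 2.32% of all genes rising and 1.43% falling, and all 26 were higher at 12 h with a median of 0.37. With the 14 sleeping mice alone 13 rose, and within runs 10 and 15 did. Leaving out each of the 14 mice in turn gave between 15 and 17. When only the 4 left-out arrays of the sleeping mice were removed, 10 rose. The count of 16 thus also rests on leaving out arrays of other groups.

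Fkbp5, a cochaperone that damps the glucocorticoid receptor and is itself one of its strongest targets, moved most in this list. With all mice Fkbp5 ran from 7.84 through a median of 8.49 to 10.05 at 9 h and from 9.03 through 9.96 to 10.22 at 12 h. The spread of the 9 h group came from arrays 10 and 28, which read 10.01 and 10.05 and lay inside the 12 h range, whereas arrays 15 and 32 read 9.03 and 9.05, below every other 12 h mouse. The difference was 1.09 ± 0.29 (SE, limma adjusted p = 0.0947) with all arrays. Without the 16 arrays the 7 mice at 9 h ended at 8.67 and the 7 at 12 h began at 9.76, and the difference was 1.69 ± 0.16 (SE, limma adjusted p = 3.06e-11), or 3.23-fold. It was 1.43 within arrays 10 to 19 and 2.04 within arrays 28 to 35. Fam107a, an actin-binding protein induced by stress and glucocorticoids, showed the same arrangement of mice. Its 9 h values ran from 7.81 to 10.11 with all arrays and only to 8.73 without the 16, against 9.56 to 10.09 at 12 h, and the difference went from 1.01 (limma adjusted p = 0.127) to 1.63 (limma adjusted p = 2.77e-12).

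**Figure D2:**
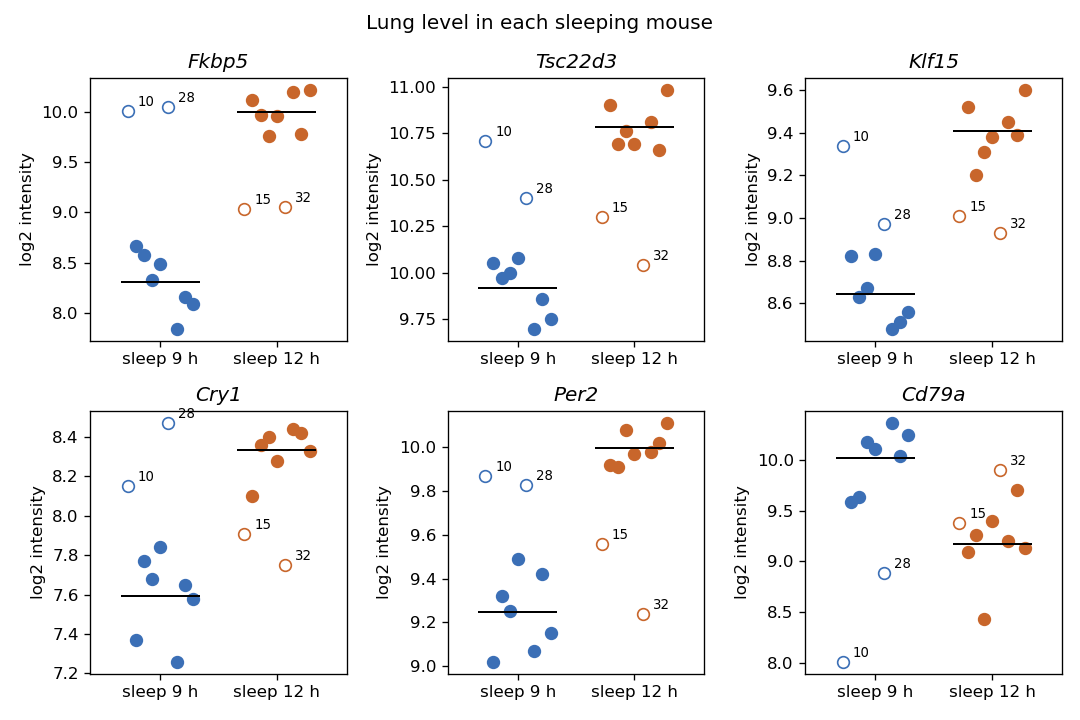
Log2 intensity of 6 genes in each sleeping mouse, by labelled group. Filled circles are the 7 mice per group kept without the 16 arrays, open circles with numbers are arrays 10, 28, 15 and 32, and the line is the mean of the filled circles. For Fkbp5, arrays 10 and 28 read 10.01 and 10.05 and lie among the 12 h mice.

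Other members rose by less. Hif3a, an inhibitory partner of the hypoxia factors, rose by 1.29 without the 16 arrays, from at most 5.95 at 9 h to at least 6.82 at 12 h, while arrays 10 and 28 read 7.68 and 7.69. Tsc22d3, known as GILZ, carries the anti-inflammatory action of glucocorticoids and rose by 0.87 ± 0.11 (SE, limma adjusted p = 4.62e-08). Ddit4, a brake on mTOR signalling, rose by 1.01, Zbtb16, a zinc finger repressor, by 1.06, and the sulfotransferase gene Sult1a1 by 0.98. Klf15, a transcription factor that links glucocorticoids to amino acid use, rose by 0.76 ± 0.11 (SE, limma adjusted p = 8.19e-07), with 8.48 to 8.83 at 9 h and 9.20 to 9.60 at 12 h. Nfkbia, the inhibitor that holds NF-kB in the cytoplasm, rose by 0.46, and Sgk1, a kinase that raises sodium uptake, by 0.20. Lcn2 (0.04), Tgm2 (0.10), Mt2 (0.16) and Bcl6 (0.16) were among the 10 members that did not pass.

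Sequences were examined to show what the genes of this list carry at their starts, since 16 of them rose without the 16 arrays. RefSeq sequence (GRCm38.p6, 250 bases before to 50 after each start) was matched for 22 of the 26 genes, which have 35 promoters. The glucocorticoid response element was searched on both strands as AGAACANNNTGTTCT, which occurs in 0.00913% of all 32851 promoters, and in the list at 1 of the 35, that of Sgk1. A looser form, GNACANNNTGTNC, which contains the first, occurs in 0.475% of promoters and in the list in 4 of the 35, at Fam107a, Mt1 and Sgk1. The E-box CACGTG occurs in 7.15% of promoters and in 6 of the 35 (17.1%), those of Bcl6, Dusp1, Fkbp5, Klf15, Per1 and Sgk1. The promoters of Sgk1 (chr10:21993640-21993939, plus strand) and of Fkbp5 (chr17:28486100-28486399, minus strand) are shown as the one with the full glucocorticoid element and the one of the leading gene, each 5′ to 3′ on its own strand. Capitals mark the glucocorticoid element in Sgk1 and the E-box in Fkbp5 (the E-box of Sgk1 is left in lower case), and a match in letters is not a measured binding site.
Sgk1: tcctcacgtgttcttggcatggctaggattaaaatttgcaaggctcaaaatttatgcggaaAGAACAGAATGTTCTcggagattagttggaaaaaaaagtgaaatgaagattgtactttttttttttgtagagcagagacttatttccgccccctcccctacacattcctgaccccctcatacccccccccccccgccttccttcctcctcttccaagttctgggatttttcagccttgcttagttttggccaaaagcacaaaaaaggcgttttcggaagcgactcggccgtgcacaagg
Fkbp5: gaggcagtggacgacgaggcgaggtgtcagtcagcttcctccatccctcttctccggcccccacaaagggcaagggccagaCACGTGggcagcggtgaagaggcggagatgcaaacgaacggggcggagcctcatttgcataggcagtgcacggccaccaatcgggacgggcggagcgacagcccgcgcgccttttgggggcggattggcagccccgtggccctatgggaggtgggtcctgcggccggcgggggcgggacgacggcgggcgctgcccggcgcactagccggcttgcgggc
The windows are short, and elements outside them were not searched.

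Most core clock genes did not pass. With all arrays none did. Without the 16 arrays 3 of the 11 measured repressor genes rose, 1 fell, 7 did not pass, and 1 of 7 activators and partners rose. Of all genes 2.32% rose and 1.43% fell. When only the 4 left-out arrays of the sleeping mice were removed, 1 repressor gene rose and none fell. The repressor counts thus also rest on leaving out arrays of other groups. With the kept sleeping mice alone 2 repressor genes rose and 1 fell. Per2, a repressor whose transcript peaks late in the light period, ranged from 9.02 through a median of 9.25 to 9.49 at 9 h and from 9.91 through 9.98 to 10.11 at 12 h in the 7 mice of each group, so the groups did not overlap. Arrays 10 and 28 read 9.87 and 9.83, and arrays 15 and 32 read 9.56 and 9.24. The Per2 difference was 0.49 with all arrays (limma adjusted p = 0.441) and 0.75 ± 0.11 without the 16 (SE, limma adjusted p = 1.86e-06).

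Cry1, the repressor that acts latest in the cycle, showed the same order of mice. It ranged from 7.26 through 7.65 to 7.84 at 9 h and from 8.10 through 8.36 to 8.44 at 12 h without the 16 arrays, and the difference was 0.74 ± 0.09 (SE, limma adjusted p = 6.52e-08), against 0.47 (limma adjusted p = 0.179) with all arrays. It was 0.62 and 0.90 within the 2 runs. Its relative Cry2 rose by 0.25 ± 0.05 (SE, limma adjusted p = 0.0012). Bhlhe41, also called Dec2, which represses CLOCK and BMAL1, fell by 0.50 ± 0.09 on the log2 scale (SE, limma adjusted p = 0.000211), with 9.11 to 9.73 at 9 h and 8.65 to 9.05 at 12 h. Its relative Bhlhe40 had a difference of -0.28 that did not pass (limma adjusted p = 0.0385).

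The Cry1 promoter (GRCm38.p6, chr10:85185005-85185304, minus strand, 5′ to 3′) is shown because this gene had the smallest p of the core clock genes and holds an E-box, which stands in capitals. For 8 of the 11 repressor genes 12 promoters were matched. The E-box is held by 4 of the 12, those of Bhlhe41, Ciart, Cry1 and Per1, beside 7.15% of all promoters.
Cry1: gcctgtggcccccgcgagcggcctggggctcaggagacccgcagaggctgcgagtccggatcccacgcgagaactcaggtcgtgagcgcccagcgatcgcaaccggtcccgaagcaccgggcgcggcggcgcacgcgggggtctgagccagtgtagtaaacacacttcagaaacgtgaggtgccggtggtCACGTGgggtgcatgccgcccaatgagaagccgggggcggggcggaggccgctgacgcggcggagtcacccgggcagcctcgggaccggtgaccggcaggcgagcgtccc
The letters alone do not show binding in these lungs.

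Per1 and Per3 did not pass. Per1 differed by 0.38 (limma adjusted p = 0.19) although the 7 mice at 9 h ended at 10.36 and the 7 at 12 h began at 10.42, and the fit's spread also draws on the other groups. Per3 differed by 0.26 (limma adjusted p = 0.0232). Of the activators, Arntl differed by -0.25 (limma adjusted p = 0.269) and Clock by -0.09, Npas2 by 0.10, Arntl2 by -0.04, Rora by 0.15 and Nr1d2 by -0.08, none of which passed. Arntl was low at both hours, with a mean of 9.37 in baseline mice, then 8.89 (3 h), 7.26 (6 h), 6.03 (9 h) and 5.78 (12 h) in sleeping mice without the 16 arrays. Nfil3, a repressor that acts on D-boxes, rose by 0.48 ± 0.10 (SE, limma adjusted p = 0.00138). Csnk1d (-0.01), Csnk1e (0.07), Ciart (0.08) and Timeless (0.16) did not pass. Dbp and Nr1d1 share their probe sets with another gene and were not used.

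Among 12 measured output genes of the clock, 7 rose without the 16 arrays, beside 2.32% of all genes. None fell and 11 were higher at 12 h, with a median difference of 0.32. Wee1, a kinase that delays entry into mitosis and a direct clock target, lay between 9.09 and 9.35 at 9 h, against 9.70 to 10.05 at 12 h, and rose by 0.58 (limma adjusted p = 3.53e-08). Lonrf3 rose by 0.69 and Fmo2, a flavin monooxygenase abundant in lung, by 0.27. Tsc22d3 is also a member of this list. The count was 4 with the 14 sleeping mice alone and between 4 and 7 when each of them was left out in turn. Within runs it was 3 for arrays 10 to 19 and 6 for arrays 28 to 35. Leaving out only arrays 10, 15, 28 and 32 gave 1, so the 7 also rest on leaving out arrays of other groups. Neither cold-inducible gene passed. Cirbp, which stabilizes Clock transcripts when body temperature falls, differed by -0.49 (limma adjusted p = 0.0182) and Rbm3 by -0.01, against -0.22 and 0.12 with all arrays.

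**Figure D3:**
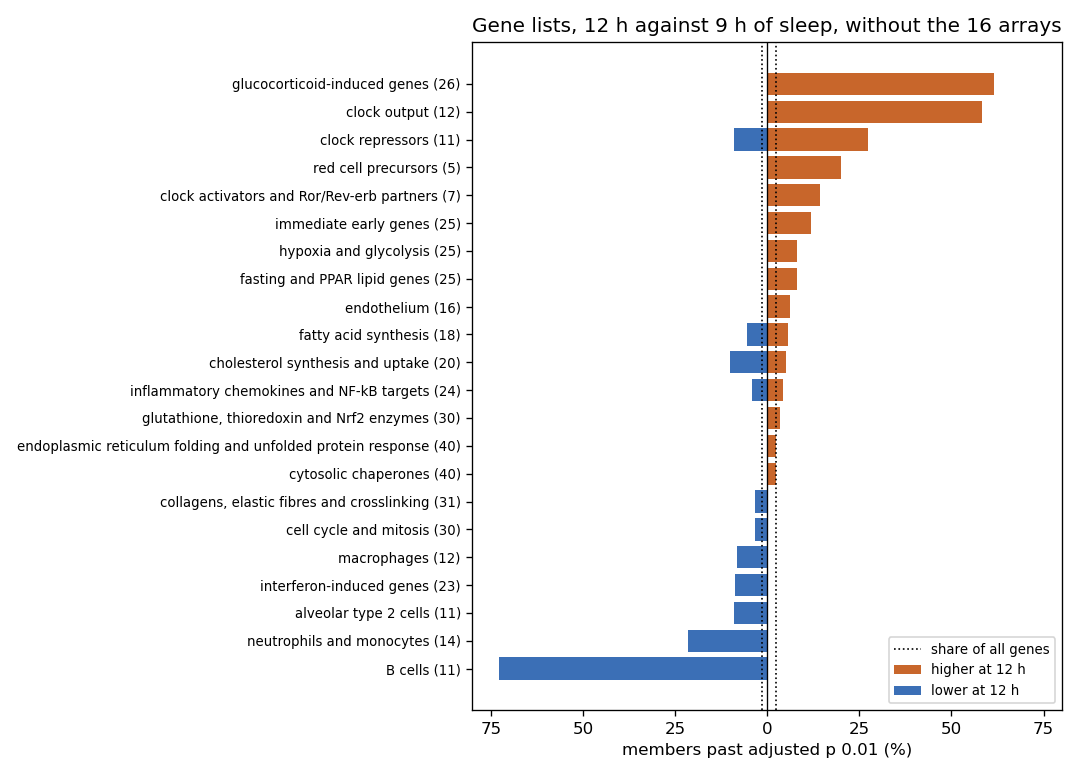
Percent of measured members of each list that rose (to the right) or fell (to the left) from 9 h to 12 h of sleep at an adjusted p under 0.01 without the 16 arrays, with the number measured in brackets. Dotted lines are the shares of all genes, 2.32% higher and 1.43% lower. Lists with no member past the threshold are not drawn, and B cell genes lie farthest left with 8 of 11.

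The largest rises without the 16 arrays included genes outside these lists. Mettl21e, a protein lysine methyltransferase known from muscle, ranged from 5.46 through a median of 5.91 to 6.09 at 9 h and from 7.32 through 7.58 to 7.64 at 12 h. The gap between the groups was wide, and arrays 10 and 28 read 7.71 and 7.27 while array 32 read 6.11. The difference was 1.70 ± 0.16 (SE, limma adjusted p = 2.36e-11), or 3.25-fold. Doc2b, a calcium sensor for vesicle fusion, rose by 1.35 and Myrip, which links vesicles to myosin, by 1.17. Rgcc, a regulator of the cell cycle and of endothelial growth, rose by 1.0, the stress kinase gene Map3k6 by 0.98, the steroid-metabolizing reductase gene Akr1c14 by 0.96, Wfdc8 by 0.95 and Gpr137c by 0.86. Of the 10 genes in the skeletal muscle marker list none passed, and 1 was higher at 12 h.

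Metabolic and stress lists had few members past the threshold without the 16 arrays, where 2.32% of all genes rose and 1.43% fell. Of 25 fasting and lipid genes, Angptl4, an inhibitor of lipoprotein lipase induced by fasting and glucocorticoids, rose by 0.85 and Lpl, the lipase itself, by 0.50. Of 18 fatty acid synthesis genes, Lpin1, a phosphatase and coactivator in fat synthesis and use, rose by 0.65. Elovl1 of the same list, an elongase of very long fatty acids, fell by 0.38 on the log2 scale (limma adjusted p = 5.81e-09). Of 20 cholesterol genes Pmvk rose by 0.44, and Stard4 and Hsd17b7 fell by 0.40 and 0.42. Among 25 immediate early genes Ccn2 (0.43), Nr4a2 (0.39) and Zfp36 (0.28) rose, and among 25 hypoxia and glycolysis genes Adm (0.76) and Bnip3 (0.37) did. Of 40 cytosolic chaperone genes only Dnajb5 rose (0.21), and of 40 genes of folding and the unfolded protein response in the endoplasmic reticulum only Herpud1 did (0.24). The median differences of these lists were 0.02 and 0.00, near that of all genes, and both shares are near the background. One of 30 cell cycle genes fell, Ccnd1 by 0.27, the D-type cyclin of the first growth phase, and one of 31 matrix genes, Col6a3 by 0.35. Gsta3 rose by 0.36 as the only one of 30 glutathione, thioredoxin and Nrf2 genes. None of 30 proteasome, 28 respiratory chain, 21 growth factor, 7 hexosamine or 7 MHC class II genes passed. All 7 MHC class II genes were lower at 12 h (median -0.19).

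Transcripts of B cells were lower at 12 h. Of the 11 measured markers 8 fell without the 16 arrays, beside 1.43% of all genes. All 11 were lower, with a median difference of -0.77, against -0.39 and no call with all arrays. Blk, a kinase of the B cell receptor pathway, fell by 0.82, Pax5, the factor that holds B cell identity, by 0.77, and Fcer2a, the low-affinity IgE receptor, by 0.96. Cd79a, the signalling chain of the receptor, ranged from 9.58 through a median of 10.11 to 10.36 at 9 h and from 8.43 through 9.20 to 9.70 at 12 h, so the groups overlapped between 9.58 and 9.70, and fell by 0.85 ± 0.17 (SE, limma adjusted p = 0.000496). Arrays 10 and 28 read 8.01 and 8.88, below the other 9 h mice. These calls rest on the spread shared with the other groups. With the 14 sleeping mice alone, 0 of 11 passed, and within runs 0 and 5 did. When only the 4 left-out arrays of the sleeping mice were removed, 5 of 11 fell. The count of 8 thus also rests on leaving out arrays of other groups. In tissue RNA, fewer cells of a type and less RNA per cell cannot be told apart.

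Single genes of other leukocytes fell as well without the 16 arrays, where 1.43% of all genes fell and 2.32% rose. Ccr3, the eotaxin receptor of eosinophils, had the largest fall among the named genes without the 16 arrays. It fell by 1.13 ± 0.17 on the log2 scale (SE, limma adjusted p = 4.28e-06), with 5.58 to 6.52 at 9 h against 4.84 to 5.30 at 12 h, while arrays 10 and 28 read 4.77 and 4.97. With all arrays the Ccr3 means of 5.87 at 9 h and 5.13 at 12 h were below 6, the mean required by the filter for dim probe sets. Siglecf, found on eosinophils and alveolar macrophages, fell by 0.31 as the only one of 12 macrophage markers to pass, while 9 of the 12 were higher at 12 h (median 0.09). Of 14 neutrophil and monocyte markers Ccr2, the receptor that brings monocytes out of marrow, fell by 0.79, Retnlg by 0.84 and Ifitm6 by 0.75, while the other 11 did not pass and 5 of the 14 were higher (median -0.20). The chemokine gene Ccl3 fell by 0.78. Bank1 and Fcmr, which are among the B cell markers counted above, fell by 0.86 and 0.82. Ms4a4c, Adgre4, H2-Ob and Ikzf3, leukocyte genes outside the marker lists, fell by between 0.78 and 0.85, and Spon2 and Olfr1342 by 0.79 each. Of 23 interferon-induced genes, Irf7 and Rtp4 passed and fell by 0.45 and 0.34, and 2 of the 23 were higher (median -0.14). None of the 11 T cell markers (median -0.33) or of the 11 NK and cytotoxic markers (median -0.44) passed, although each of the 22 was lower at 12 h. The 9 platelet markers were all higher (median 0.23) without passing. Alas2, the first enzyme of heme synthesis in red cell precursors, rose by 0.63 as the only 1 of 5 red cell markers to pass. All 5 were higher (median 0.33).

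Markers of the lung's own cells mostly did not pass without the 16 arrays, where 2.32% of all genes rose and 1.43% fell. The tissue label was borne out by Sftpc, the surfactant protein of alveolar type 2 cells, which lay between 13.18 and 13.37 in the 18 mice, and by Scgb1a1 of airway club cells, which lay between 12.19 and 13.14. Of 11 markers of alveolar type 2 cells only Lpcat1, an enzyme that makes surfactant lipid, passed and fell by 0.22, while 7 of the 11 were higher (median 0.03). Of 16 endothelial markers Ramp2, the partner of the adrenomedullin receptor, rose by 0.27. No marker of airway (11), smooth muscle (11), cardiac (11) or thymus and lymph node (8) cells passed. All 11 cardiac markers (median 0.27) and 10 of the 11 airway markers (median 0.15) were higher at 12 h. Of the smooth muscle markers 8 were higher (median 0.02), and of the thymus and lymph node markers 5 (median 0). Markers of neighbouring organs varied between single mice. The mean level of 15 liver genes, set against its mean over all 78 arrays, lay between -1.26 and 1.32 in the 7 mice of 9 h, against -1.16 to -0.62 in the 7 of 12 h. The level of 10 skeletal muscle genes lay between -1.10 and 2.54, against -1.12 to 1.04, and that of 10 fat genes between -1.26 and -0.18, against -1.29 to 1.35. None of the markers of these 3 organs passed, and their part in the results above was not tested.

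The step from 9 h to 12 h was also compared with the same step in sleep-deprived mice. With all arrays no probe set had a step that differed between conditions (limma, adjusted p under 0.01, 0%), and 3561 had an unadjusted p under 0.05. The smallest p values were those of Id3, Fzd8, Irf7, Dusp5 and Traf3ip1, with adjusted p from 0.143 upward. Without the 16 arrays 6 probe sets differed, 0.0169% of those tested, with 5 larger and 1 smaller in sleep. Bcl2l1, whose main product Bcl-xL protects cells from apoptosis, rose in sleep by 0.63 and changed by -0.06 in deprived mice, a difference of 0.69 ± 0.11 (SE, limma adjusted p = 0.00101). At 9 h its mean was 9.51 ± 0.14 (SD, n = 7) in sleep and 10.08 ± 0.20 (SD, n = 8) in deprived mice, and at 12 h 10.15 and 10.03, so the conditions were apart at 9 h and close at 12 h. Fas, the death receptor, had the same form, with a step of 0.64 in sleep against 0.06. Atp7b, a copper exporter, stepped by 0.62 against 0.13, and its conditions crossed, from 9.21 in sleep and 9.46 in deprived mice at 9 h to 9.84 and 9.59 at 12 h. Mettl21e stepped by 1.70 against 0.44, from 5.82 in sleep and 7.18 in deprived mice at 9 h to 7.52 and 7.62 at 12 h, and Dock5 by 0.26 against -0.04. Dusp5, a phosphatase of ERK, ran the other way, falling by 0.39 in sleep against a step of 0.31 (limma adjusted p = 0.00101 for the difference). With only the 4 groups in the fit, without the 16 arrays, 13 probe sets differed. Leaving out only the 4 arrays of the sleeping mice (10, 15, 28 and 32) gave 0.

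**Figure D4:**
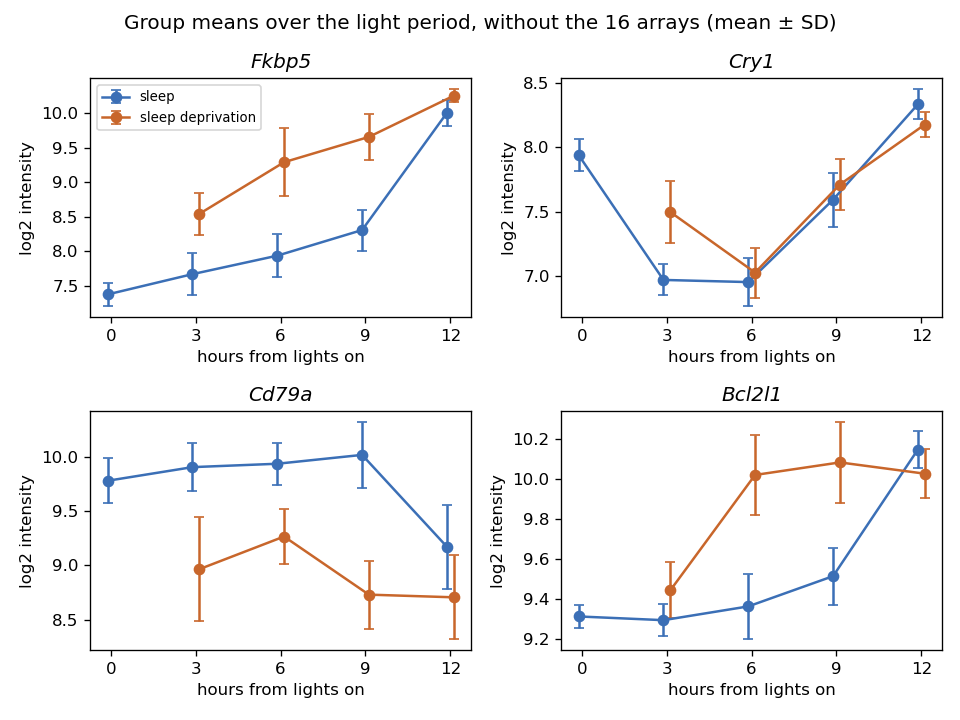
Mean log2 intensity with SD of 4 genes at each hour from lights on, in sleeping and sleep-deprived mice without the 16 arrays, with the baseline mice at 0 h. In sleeping mice Bcl2l1 lies at 9.51 at 9 h and 10.15 at 12 h, beside 10.08 and 10.03 in sleep-deprived mice, Cry1 lies lowest at 3 h and 6 h, and Cd79a lies at 9.17 at 12 h.

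Across the 874 probe sets called in sleep without the 16 arrays, 769 moved the same way in deprived mice and 141 passed there as well, where 2.47% of all probe sets did. The step of the deprived mice had a median of 0.42 times that of the sleeping mice. The probe sets were chosen for their step in sleep, which makes that step the larger, so the ratio is a description. Of the glucocorticoid list 4 of 26 rose in deprived mice, with a median of 0.26 against 0.37. Fkbp5 stepped by 0.59 in deprived mice (limma adjusted p = 0.0132) from 9.65 ± 0.33 (SD, n = 8), having been at 8.31 ± 0.30 (SD, n = 7) in sleep at 9 h, and ended at 10.25 in deprived mice at 12 h. The difference between its steps was 1.10 and did not pass (limma adjusted p = 0.0234). Klf15 stepped by 0.13 in deprived mice, and the difference of 0.63 between its steps did not pass either (limma adjusted p = 0.0545). Cry1 rose by 0.47 in deprived mice (limma adjusted p = 0.00215) and Per2 by 0.39 without passing (limma adjusted p = 0.0175). Doc2b rose by 1.19 (limma adjusted p = 6.58e-06) beside 1.35 in sleep. None of the 11 B cell markers passed in deprived mice, where their median step was -0.03. In these mice Cd79a was at 8.73 at 9 h and 8.71 at 12 h, below the 10.02 and 9.17 of sleeping mice. The difference between the steps of Cd79a did not pass (limma adjusted p = 0.131).

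**Figure D5:**
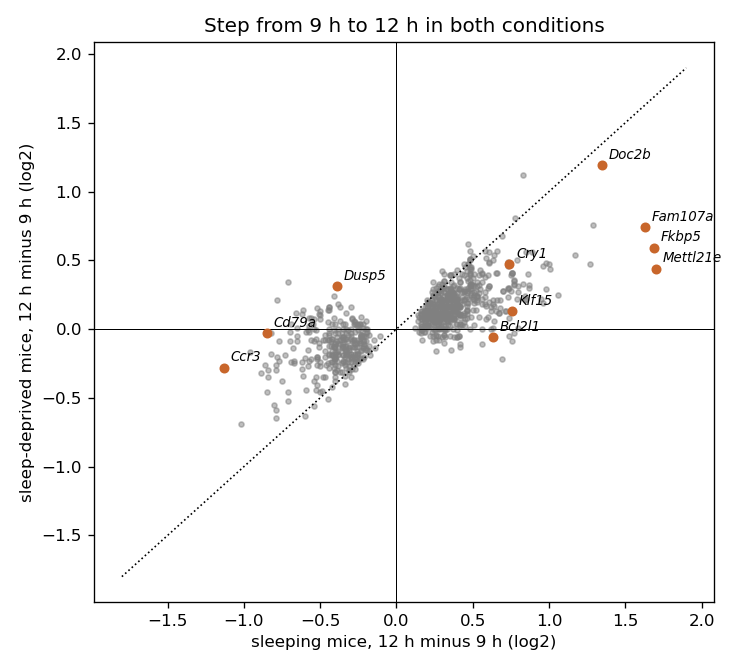
Step from 9 h to 12 h in sleeping mice (horizontal, log2) against the step in sleep-deprived mice (vertical, log2) for the 874 probe sets called in sleep without the 16 arrays. The dotted line marks equal steps. The steps lie on the same side of 0 for 769 of 874 probe sets, and Dusp5 lies on the opposite side.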

How the data were processed

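RNA of 78 mouse lungs was hybridized by the authors to Affymetrix Mouse Gene 1.0 ST arrays, 1 per mouse. The authors read the arrays with R/oligo and applied robust multi-array averaging (RMA) over all lung arrays, which yields log2 intensities for 35556 probe sets. The deposited values lack their decimal point, which was restored after the first digit, or the second where the first is 1. Values then ran from 2.27 to 13.85. The genome build of the probe sets is not given in the sources used here. A single gene symbol exists for 21218 probe sets (several for 1881, none for 12457), and each of 18820 genes was read from its brightest probe set. Arrays have no read depth, and the number of mice limits precision.

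Moderated tests were run in limma 3.58.1 (R 4.3.3) on all 78 arrays with 1 mean per group, for 12 h minus 9 h of sleep and for its difference from the step in deprived mice, with Benjamini-Hochberg adjustment over all probe sets and a threshold of 0.01. Runs of array numbers, array weights, a dim filter at 6, other variance priors and single mice left out were alternatives. The procedure was tested on simulated data. The members, the 38 gene lists (658 of 721 genes matched) and the set of 16 arrays were chosen with earlier results of these data known. Named genes were the 15 largest changes per direction past the threshold, up to 4 per list, all core clock and cold-inducible genes and the 5 smallest p of the step difference, with the 5 smallest p added where fewer than 15 passed. The same rule was applied to the results without the 16 arrays, which was decided after seeing the data, as were the other values named for the glucocorticoid list.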

Additional observations from a re-analysis of the deposited data

Results flagged for a closer look

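Among the named genes, 11 of 196 sets of 9 mice held a single mouse whose gap to the next exceeded Dixon's critical value of 0.493, which is 5.61% where chance gives about 5%. Of these, 7 were array 32 in the group labelled 12 h of sleep, which stands among 9 h of sleep under the layout of array numbers used here. It was lowest for Angptl4 (8.74, next 9.44), Ddit4 (8.92, next 9.51), Map3k6 (8.79, next 9.27) and Nr4a2 (7.83, next 8.12), and highest for Ccr3 (5.81, next 5.30), Col6a3 (9.16, next 9.00) and Hsd17b7 (8.91, next 8.52). Array 10, labelled 9 h, was highest for Doc2b (7.28, next 5.92) and Nfil3 (6.97, next 6.10). Array 11 was lowest for Gtf3c4 at 9 h (7.11, next 7.55) and array 34 for Id3 at 12 h (9.66, next 9.75).

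Without the 16 arrays the step from 9 h to 12 h differed between sleeping and sleep-deprived mice for 6 genes in limma's test of that difference. Sleeping minus deprived, the difference was 0.69 for Bcl2l1, 0.49 for Atp7b, 0.58 for Fas, 0.30 for Dock5, 1.26 for Mettl21e and -0.70 for Dusp5. With all arrays none passed (adjusted p between 0.143 and 0.457 for these genes), and the 6 genes lay on the same side in that test.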

How the results depend on the processing

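The count of probe sets differing between 12 h and 9 h of sleep was 5 with all arrays. It was 0 with the 18 sleeping arrays alone (3347 at an unadjusted p under 0.05), 142 with array weights, 2 with a trended and robust prior, 10 within arrays 10 to 19, 0 within arrays 28 to 35, 25 at a threshold of 0.05, 874 without the 16 arrays and, as an alternative added after seeing the data, 433 without arrays 10, 15, 28 and 32. Leaving out single mice gave 0 to 16, with 16 without array 10, 8 without arrays 30 or 32, 3 without array 34, 2 without arrays 19 or 35, 1 without arrays 13 or 28 and 0 without arrays 11, 12, 14, 16, 17, 18, 31 or 33. A run block (5) and the dim filter (7) stayed within 1.5 times.

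Starting from the 874, alternatives chosen after seeing the data gave 320 with the 14 sleeping mice alone, 1552 with array weights, 418 within arrays 28 to 35 and 1806 at 0.05. Leaving out single mice gave 659 to 939. The count for the difference between steps was 0 with all arrays, 0 without only the 4 left-out arrays of the sleeping mice, and 6 without the 16. Without the 16 it became 13 with the 4 groups alone, 49 with array weights and 53 at 0.05, and lay between 5 and 8 with single mice left out. No call of a named gene turned its direction. Of the calls of named genes without the 16 arrays, 35 were lost with the 14 sleeping mice alone, 46 within arrays 10 to 19 and 32 within arrays 28 to 35. The cause of these shifts was not tested. No paired analysis was possible because each array number occurs once and the groups share none. With all probe sets of each gene the median of the cold-inducible genes was 0.10 in place of -0.05 with all arrays.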
